A study of Homo sapiens with 58 samples.

Results

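A set of 341 HuR binding sites in the 3'UTRs of 271 genes was described, chosen by their fraction values, because their signal stayed higher in the cytoplasm than in the nucleus after arsenite. They come from 37614 3'UTR peaks, and from 387214 peaks in all, measured by HuR CLIP-seq in Huh-7.5, an established human hepatocellular carcinoma line. A peak entered when 3 criteria on the cell fractions were met: a mean of at least 10 CPM (tags per 1000000 tags of the library) in the arsenite cytoplasmic fraction, a mock cytoplasmic mean plus 1 CPM at least 4 times the nuclear mean plus 1 CPM, and an arsenite cytoplasmic mean plus 1 CPM at least 2 times the nuclear one. The first criterion left 1414 3'UTR peaks and the second 837. The 341 that also met the third are called retained peaks below, and the other 496 comparison peaks. The fraction values that chose the retained peaks are given as a description with no test.

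HuR, encoded by ELAVL1, is an RNA-binding protein that recognises U-rich and AU-rich stretches, mostly in introns and 3'UTRs. It sits largely in the nucleus, shuttles to the cytoplasm, and there is known for stabilising mRNAs and affecting their translation. Arsenite is an oxidative stressor that halts translation and drives mRNAs into stress granules, cytoplasmic condensates built around G3BP1 in which HuR is also found.

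The fractions came from wild-type cells that had no APEX reaction, with 3 libraries each of cytoplasm and nucleus per treatment; treatment was mock or sodium arsenite, 0.5 mM over 45 min. The other 46 libraries came from lines carrying APEX, a peroxidase that tags nearby proteins with biotin, directed to the nucleus (NLS line), to the cytoplasm (NES line) or fused to G3BP1 (G3BP line). All 3 lines, mock or with the same arsenite treatment, received biotin phenol (0.5 mM, 30 min) and hydrogen peroxide (1 mM, 1 min), and all cells were crosslinked with UV at 254 nm. Input libraries had the HuR immunoprecipitation alone, and enriched libraries had a streptavidin capture in addition. Per treatment there were 4 enriched and 2 input libraries of the NLS line and as many of the NES line, and for the G3BP line 6 enriched and 4 input libraries of mock cells and 7 and 5 of arsenite cells. The promoter of the APEX fusions and whether a line is 1 clone are not given in the sources used here.

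Tags in peaks numbered 235471 to 673322 in fraction libraries, the inputs had 1353 to 484305 and the enriched ones 519 to 86419, so single sites were measured more precisely in the fractions than in the enriched libraries and in most inputs. The prefix of the library descriptions gives 4 library sets. All fractions lie in JL0380, so cell fraction and that set cannot be told apart when they are compared with the APEX libraries. Of 15 hepatocyte markers 12 had tags, 26060 in inputs and fractions together, with APOA1, APOC3 and TTR at 0; markers of blood cells, endothelium and fibroblasts had 150, 10 and 6 tags. The labels do not say whether replicates were separate cultures, so p-values measure the spread between these libraries only. Within 4 enriched groups a pair of libraries could not be told apart from sampling noise (chi-square per degree of freedom 1.07 to 1.09, permutation p 0.064 to 0.113), and each such pair was counted as 1 sample in group means and n. These were replicates 1 and 2 in both NLS groups and in the NES arsenite group, and replicates 4 and 5 in the G3BP arsenite group. Replicates 3 and 4 of the G3BP mock group were also not told apart (0.976, permutation p 0.783), at 179 tags in the smaller of them, and were kept as 2 samples. The tests across peaks did not average these pairs, and values with pairs counted once are given where they differ. In bulk libraries, fewer cells and less RNA per cell cannot be told apart, and CPM are relative to each library's own total.

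The retained peaks together took 19193, 24537 and 26437 CPM in the 3 mock cytoplasmic libraries and 2693, 2869 and 3088 CPM in the 3 mock nuclear libraries. With arsenite they took 12812, 13094 and 14638 CPM in the cytoplasm and 4272, 4703 and 4896 CPM in the nucleus. The cytoplasmic libraries were thus above the nuclear ones under both treatments, but the gap was smaller with arsenite: the cytoplasmic sum was 0.578 of mock and the nuclear sum 1.60 times mock, so that cytoplasm over nucleus went from 8.11 to 2.92. "Staying cytoplasmic" therefore holds as the rule defines it, not as an unchanged distribution. The ratio was lower with arsenite than in mock at 336 of the 341 sites and higher at 5, with a median log2 change of -1.31.

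**Figure D1:**
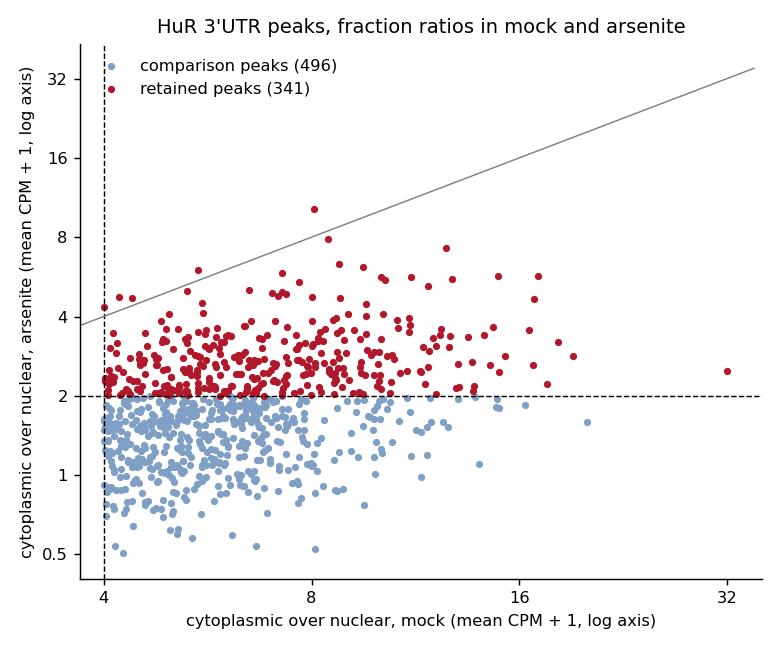
Cytoplasmic over nuclear ratio (means plus 1 CPM, n = 3 libraries per mean, log axes) in mock on the horizontal and in arsenite on the vertical axis, for the 341 retained peaks (red) and the 496 comparison peaks (blue). Dashed lines are the thresholds of 4 and 2 and the grey line is equality; 5 retained peaks lie above it and 336 below.

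Site by site, the mock ratio of the retained peaks ran from 4.01 to 32.0 with a median of 6.77, and the arsenite ratio from 2.00 to 10.2 with a median of 2.64. All 341 sites had mock cytoplasmic values above every mock nuclear value, and 336 did so with arsenite. Since the rule used these contrasts, nothing is read from those counts; among the 1414 3'UTR peaks at or above 10 CPM the shares were 92.2% in mock and 54.4% with arsenite, and among the 377187 peaks of any class with a tag in the fractions they were 4.85% and 4.67%.

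The sites did not all move the same way between treatments. At 210 sites the mean was lower in the cytoplasm and higher in the nucleus with arsenite, at 85 it was higher in both, at 44 lower in both, and at 2 higher in the cytoplasm and lower in the nucleus. The cytoplasmic log2 change had a median of -0.49, from -2.55 to 1.503, and was -1 or less at 107 sites and 1 or more at 11. The nuclear log2 change had a median of 0.79. The comparison peaks had medians of -0.89 and 1.25, and their summed signal went from 37431 to 16416 CPM in the cytoplasm and from 5745 to 12522 CPM in the nucleus.

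**Figure D2:**
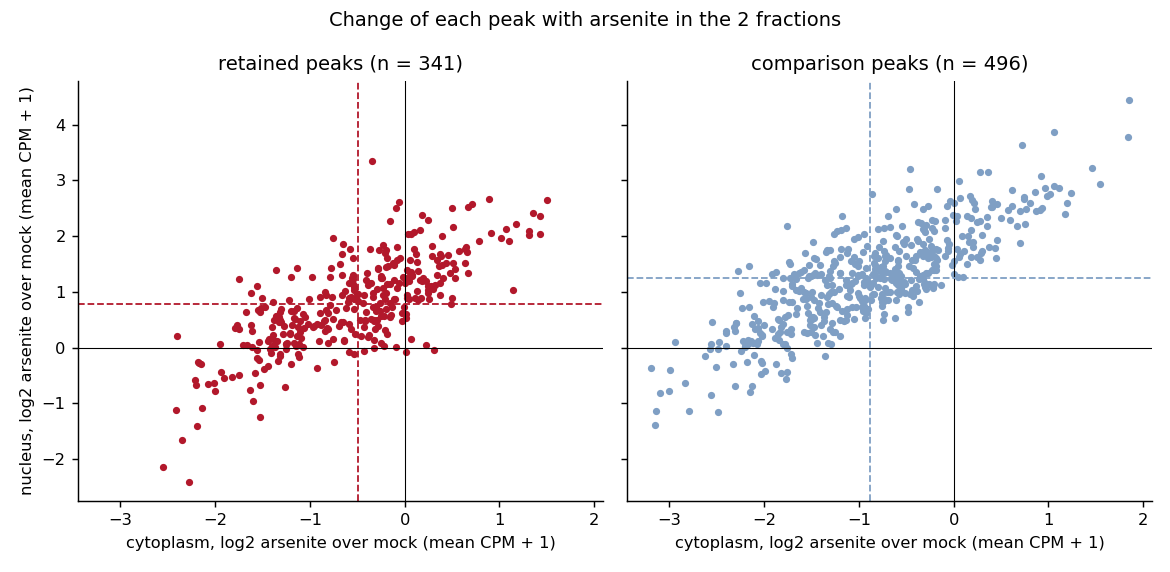
Log2 change with arsenite (means plus 1 CPM, n = 3 libraries per mean) in the cytoplasm (horizontal axis) and the nucleus (vertical axis), one point per site, for the 341 retained peaks (left) and the 496 comparison peaks (right); dashed lines are medians. The retained peaks have medians of -0.49 and 0.79, the comparison peaks -0.89 and 1.25.

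Beside other sites of the same genes, the retained peaks stood higher in the cytoplasm, as the rule requires of them alone. The 2301 other 3'UTR peaks of the 271 genes summed to 5.26 times more CPM in cytoplasm than nucleus in mock and 1.66 times more with arsenite. The 34972 3'UTR peaks of other genes gave 3.49 and 1.18. Intron peaks of the 271 genes, 8392 in number, were higher in the nucleus in mock, at 0.637, and near equal with arsenite, at 1.01; the 206590 intron peaks of other genes gave 0.620 and 0.962. The 165 coding sequence peaks of these genes gave 2.90 and 1.73. Of the 271 genes 208 held retained peaks and no comparison peak, and the other 63 held 81 comparison peaks beside their retained ones.

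In the arsenite cytoplasm the strongest retained site by mean CPM lay in the 3'UTR of GDI2, which keeps Rab GTPases in their inactive, soluble form. At chr10:5765746-5765766 (minus strand) it had 549.9, 681 and 816 CPM in the mock cytoplasm against 37.9, 47.3 and 33.8 CPM in the mock nucleus. With arsenite it had 388, 537 and 477 CPM in the cytoplasm and 117, 95.2 and 86.6 CPM in the nucleus. The lowest cytoplasmic value was above the highest nuclear value under both treatments, and the ratio went from 16.8 to 4.66. GDI2 held 2 3'UTR peaks in all, the other being neither retained nor a comparison peak.

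RBM3, a cold-inducible RNA-binding protein, had the second strongest site by the same measure (chrX:48578200-48578220, plus strand). Its cytoplasmic values were 431, 489 and 544 CPM in mock and 404, 426 and 415 CPM with arsenite, and its nuclear values 56.8, 75.5 and 56.0 CPM in mock and 125, 129.6 and 143 CPM with arsenite. Every arsenite cytoplasmic library was below every mock one, though the nearest differed little, and every arsenite nuclear library was above every mock one. RBM3 held 3 retained sites and 1 comparison peak.

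RAD23B, which carries ubiquitinated proteins to the proteasome and takes part in DNA repair, was among the sites whose cytoplasmic signal was higher with arsenite. The site (chr9:107330372-107330392, plus strand) had 170.2, 273 and 316 CPM in the mock cytoplasm and 368, 377 and 434 CPM with arsenite, without overlap. Its nuclear values also lay apart, at 45.2, 37.3 and 34.8 CPM in mock and 129.7, 149.6 and 129.9 CPM with arsenite. SRSF9, an SR splicing factor, behaved alike: 93.6, 97.8 and 131 CPM in the mock cytoplasm against 193, 209 and 207 CPM with arsenite (chr12:120461886-120461906, minus strand).

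The remaining strong sites mostly had lower cytoplasmic values with arsenite. PCBP2, a poly(C)-binding protein, had 507, 664 and 729 CPM in the mock cytoplasm and 311, 411 and 346 CPM with arsenite, with ratios of 8.47 and 2.47. RPN1, a subunit of the oligosaccharyltransferase of the endoplasmic reticulum, had 512, 677 and 655 CPM and then 212, 256 and 247 CPM. IGF2, the fetal growth factor expressed by many liver tumours, had the highest mock cytoplasmic mean of all retained sites, 1180.1 CPM, and differed most between treatments among the 10 strongest sites, with 1054, 1259 and 1227 CPM in the mock and 159, 229.7 and 215 CPM in the arsenite cytoplasm. Its nuclear values were lower with arsenite too, going from 229, 265 and 274 CPM to 68.9, 59.2 and 44.2 CPM, so its ratio moved only from 4.59 to 3.46. The site named EIF5AL1 in the table had 336, 376 and 335 CPM in the arsenite cytoplasm; EIF5AL1 is a near-identical copy of the translation factor EIF5A, so its reads are uncertain between both.

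UFM1, a ubiquitin-like modifier conjugated to proteins at the endoplasmic reticulum, had the largest arsenite ratio, 10.2, above its mock ratio of 8.06. The site (chr13:38361090-38361110, plus strand) had 15.95, 19.4 and 20.03 CPM in the mock cytoplasm and 19.5, 27.3 and 22.3 CPM with arsenite. In the nucleus it had 1.46, 1.82 and 0.966 CPM in mock and 0.801, 2.40 and 0.866 CPM with arsenite, which are 1 to 3 tags a library. The nuclear level is thus near the limit of detection, and the ratio depends on the 1 CPM added to both means.

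ACTR2, a subunit of the Arp2/3 complex that nucleates branched actin, held 4 retained sites and no comparison peak among 11 3'UTR peaks. The strongest (chr2:65269850-65269870, plus strand) had 74.5, 81.5 and 98.1 CPM in the mock cytoplasm and 113, 92.7 and 103 CPM with arsenite, against 10.2, 4.55 and 7.72 CPM and then 15.2, 15.2 and 21.7 CPM in the nucleus. A second site 78 nt downstream had the second largest arsenite ratio of all, 7.88, against 8.45 in mock. The other sites of the gene had arsenite ratios of 4.68 and 2.02, so neighbouring sites of 1 transcript differed in this measure.

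Other large arsenite ratios belonged to KLHDC7A (7.28), TMEM33 (6.31), an endoplasmic reticulum membrane protein, GLUL (6.19), the glutamine synthetase of perivenous hepatocytes, a KDELR2 site (6.03), CD164 (5.83), SUMO2 (5.71), PTBP3 (5.71) and ARF4 (5.67). At GLUL the cytoplasmic values were 23.4, 41.8 and 49.6 CPM in mock and 42.6, 46.0 and 49.4 CPM with arsenite. At SUMO2, which is conjugated to proteins during stress, they were 209.5, 221 and 311 CPM in mock and 75.8, 108 and 89.7 CPM with arsenite, with nuclear values of 12.6 to 14.6 CPM in mock and 12.8 to 18.2 CPM with arsenite. The SUMO2 ratio thus moved from 17.0 to 5.71 while its nuclear values stayed in a like range.

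Most genes held 1 retained site: 227 had 1, 29 had 2 and 15 had 3 or more. KDELR2, a receptor that returns chaperones to the endoplasmic reticulum, and NUCKS1, a nuclear DNA-binding protein, held 6 each, with no comparison peak in either. The KDELR2 sites had arsenite ratios from 2.93 to 6.03 and those of NUCKS1 from 2.18 to 2.78. CANX, the chaperone calnexin, held 5 retained sites and 1 comparison peak, with arsenite ratios between 2.04 and 2.73, and RDX (radixin, which links actin to the membrane) and PSMD11, a proteasome lid subunit, held 4 each and no comparison peak. Of 70 neighbouring pairs of retained sites in 1 gene, 9 started within 100 nt of each other and the median distance was 384 nt, so the sites of a gene are not independent.

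In other genes comparison peaks outnumbered retained sites. ACTB held 2 retained sites and 3 comparison peaks, and G3BP1, IGF2BP1, MARCKS, PEG10 and SLC38A2 held 1 retained site and 3 comparison peaks each. The ACTB site near the end of the gene had 263, 368 and 456 CPM in the mock cytoplasm and 363, 387 and 383 CPM with arsenite. The retained IGF2BP1 site was low in mock, at 18.1, 29.5 and 39.0 CPM, and reached 82.3, 75.04 and 62.6 CPM in the arsenite cytoplasm, while its nuclear values were 5.46 to 7.72 CPM in mock and 23.2 to 35.5 CPM with arsenite. The G3BP1 site had 12.8, 14.3 and 21.1 CPM in the mock cytoplasm and 13.7, 12.5 and 13.9 CPM with arsenite.

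Of the 341 retained sites 111 fell in one of 20 gene lists on cell functions. Retained sites made up 40.7% of the retained and comparison peaks of all genes, and each list is described against that figure. Genes of the actin and microtubule cytoskeleton held 22 retained sites in 14 genes against 13 comparison peaks (62.9%), with a median arsenite ratio of 3.26. Beside ACTB, ACTR2 and RDX they included TPM3, an actin-binding tropomyosin (186, 266 and 174 CPM in the arsenite cytoplasm), CDC42, a small GTPase that controls actin polymerisation (114, 143 and 102 CPM), and PFN1, ARPC1A, ARPC4, CAPZA1, CAPZA2 and WASL. 

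Genes of protein entry and folding in the endoplasmic reticulum held 13 retained sites against 9 comparison peaks (59.1%). SSR1, a translocon-associated subunit, had 232, 315 and 341 CPM in the mock cytoplasm and 62.8, 73.3 and 59.1 CPM with arsenite. The list of vesicle coat, SNARE and sorting genes held 9 against 5 (64.3%). Of these 9 sites 2, in SEC61G and SEC63, belong to translocon components and are counted among the 13 of the endoplasmic reticulum list as well. The others included TMED2, a cargo receptor (129.9, 150.1 and 115.5 CPM in the arsenite cytoplasm), VPS35 of the retromer and CLTC, the clathrin heavy chain. CLTC was one of the sites higher with arsenite, with 5.32, 9.17 and 13.7 CPM in the mock cytoplasm and 22.4, 27.9 and 30.6 CPM with arsenite. RAB and ARF GTPases held 7 against 5 (58.3%). Among them RAB5A of early endosomes went from 46.8, 62.1 and 55.9 CPM to 98.2, 103.5 and 106 CPM in the cytoplasm without overlap, and in the nucleus from 4.37, 4.55 and 4.83 CPM to 28.8, 38.4 and 35.5 CPM.

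Proteasome genes held 6 retained sites in 3 genes and no comparison peak; 4 of the 6 belong to PSMD11, so they are not independent. PSMB3, a core particle subunit, had 57.8, 57.4 and 48.7 CPM in the arsenite cytoplasm against 11.2, 16.0 and 6.93 CPM in the nucleus. Ubiquitin and ubiquitin-like conjugation genes held 6 sites against 3 (66.7%), SUMO2, UFM1 and UBE2M among them. Splicing factor genes of the hnRNP and SR families held 13 against 15 (46.4%), with the highest median level among the lists with at least 10 retained sites, 48.0 CPM in the arsenite cytoplasm. HNRNPK had 106, 139 and 133.5 CPM there and TRA2A 124, 139.8 and 139 CPM. One site of this list is named HNRNPA1L3, a near copy of HNRNPA1, and its reads are uncertain.

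Genes of transmembrane 4 and TMEM proteins, a list by name and not by function, held 10 retained sites against 6 comparison peaks (62.5%), with TMEM33 among them. Hepatocyte plasma protein genes held 2 against 1 (66.7%), in ALB and TFPI. Cytosolic ribosomal proteins (RPL15) and oxidative phosphorylation (COX7A2L) had 1 retained site each and no comparison peak, too few to describe a list. ALB, serum albumin, had 49.1, 72.8 and 57.7 CPM in the arsenite cytoplasm, from 239, 326 and 365 CPM in mock.

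The other 9 lists lay below 40.7%. Stress granule protein genes held 6 retained sites and 14 comparison peaks (30.0%). YBX1, an mRNA-packaging protein, had 31.8, 29.6 and 20.2 CPM in the arsenite cytoplasm. Translation factors held 4 against 9 (30.8%), solute carriers 4 against 13 (23.5%), and cholesterol and lipid synthesis 1 against 8 (11.1%). The last was a site in ELOVL5, a fatty acid elongase, with 61.4, 73.3 and 73.7 CPM in the arsenite cytoplasm. The list of cell cycle and AU-rich regulators, which holds classical HuR targets, had 6 comparison peaks and no retained site. Zinc finger genes held 3 against 5 (37.5%), mitochondrial ribosome, import and carrier genes 2 against 3 (40.0%), heat shock and chaperone genes 2 against 5 (28.6%) and nuclear transport genes 1 against 4.

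By position, the retained sites lay a median of 1523 nt upstream of the RefSeq gene end (GRCh38.p14, 339 sites with a distance), against 1806 nt for comparison peaks and 1873 nt for all 3'UTR peaks. The share within 200 nt of the end was 9.14%, 7.49% and 9.09% in the same order. Of the 341 sites 188 were annotated as 3'UTR alone and 153 also with another class, 80 of these with intron. They lay on 22 chromosomes, 63 of them on chromosome 1.

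Just inside the 10 CPM threshold were RHOA, CLDN1 and an NAP1L1 site, and just outside were another NAP1L1 site, ELOVL5 (a second site) and MSI2. At the arsenite threshold of 2, UBE2N, an ARF1 site and WDR36 stood just inside, and STOML2, LIN7C and SORT1 just outside with ratios of up to 2.00. WDR36 was inside with 18.8, 23.9 and 14.6 CPM in the cytoplasm against 13.6, 5.60 and 7.80 CPM in the nucleus, and SORT1 outside at a ratio of 1.99. At the mock threshold of 4, NAA50, SRPK1 and STIP1 stood inside with ratios of 4.01 to 4.02, and ACLY, PTAR1 and TMEM245 outside with 3.97, 3.97 and 3.95. The boundary thus ran through sites of like values.

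The unfractionated input libraries were not used by the rule and show the same sites in whole cells. The summed signal of the retained peaks was higher with arsenite in all 7 pairs of line and library set. In the G3BP line it was 2756 CPM in mock and 7083 CPM with arsenite in JL0361, 2109 and 3936 CPM in JL0388, and 667 and 3107 CPM in JL1024. In the NES line it was 2491 and 3686 CPM in JL0388 and 1612 and 2251 CPM in JL1024. In the NLS line it was 2630.0 and 4176 CPM in JL0388 and 1102 and 1659 CPM in JL1024. Arsenite over mock was 1.40 to 4.66. It was 1.28 to 3.99 for comparison peaks and 1.25 to 3.25 for all 3'UTR peaks together over the same pairs. The upper value of each rests on G3BP input mock replicate 4 (JL1024), with 1353 tags in peaks and 15 in retained sites; without that pair the highest were 2.57, 2.01 and 1.96. Comparison peaks and all 3'UTR peaks were thus higher with arsenite in the same pairs. Of the 317 retained sites tested in input, 16 were higher with arsenite in all 7 pairs, 5.05% against 8.04% of comparison peaks, 1.53% of 3'UTR peaks and 0.626% of all peaks tested.

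**Figure D3:**
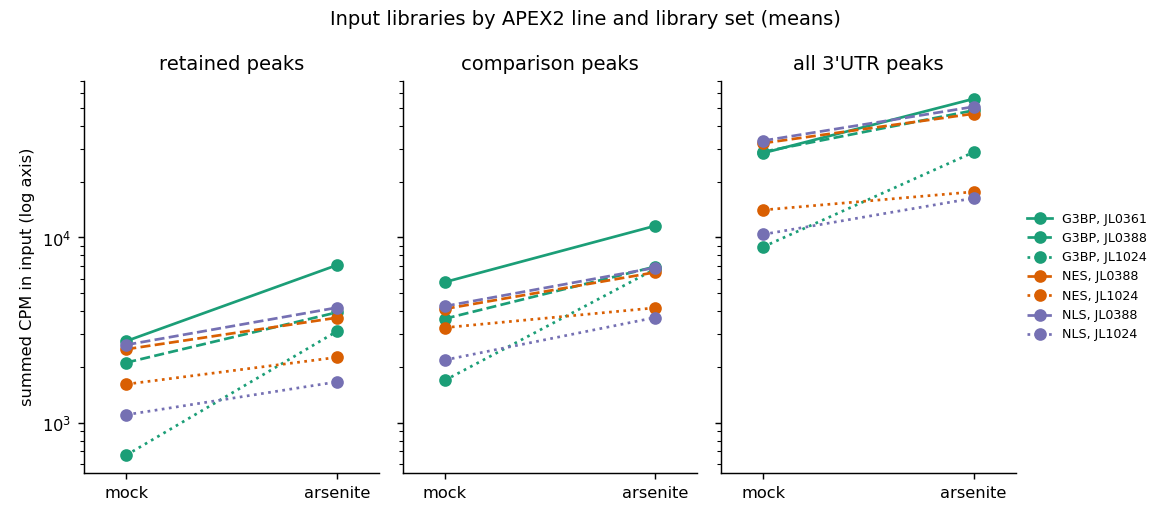
Summed CPM in input libraries (vertical log axis), mock and arsenite, with one line per APEX line and library set (means where a set holds several libraries), for retained peaks, comparison peaks and all 3'UTR peaks. All 7 lines go up in each panel; for retained peaks arsenite over mock is 1.40 to 4.66, or up to 2.57 without the G3BP pair of JL1024, whose mock library has 15 tags in these sites.

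Of the 341 sites, 317 passed the filter on low values in the input comparison. limma called 0 of them, and 0.0% of all 17091 peaks tested, after Benjamini-Hochberg adjustment at 0.05. The lowest adjusted p in limma was 0.522. At an unadjusted p under 0.05, 78 sites and 9.44% of all peaks passed. On the recovered tags, edgeR's quasi-likelihood test called 24 of the 317, all higher with arsenite, which is 7.57% against 1.61% of all peaks in either direction and 1.4% in that direction, 3.27% of 3'UTR peaks and 7.17% of the comparison peaks. The share of retained sites was thus close to that of comparison peaks. The median log2 change from limma was 0.70 for retained sites, 0.75 for comparison peaks, 0.36 for all 3'UTR peaks and 0.17 for all peaks.

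The sites called by edgeR in input were chosen for naming after their values were seen. The smallest adjusted p belonged to PTP4A1, a phosphatase (log2 1.97, adjusted p 0.0204), SESN3, a stress-inducible sestrin (log2 2.06, adjusted p 0.0204), and FAM168B (log2 1.88, adjusted p 0.0218). GLUL had 2 called sites, with edgeR log2 changes of 1.69 and 1.78 (both adjusted p 0.0325). UFM1 (log2 1.95, edgeR adjusted p 0.0402), RAB5A (log2 1.48, edgeR adjusted p 0.0482) and IGF2BP1 (log2 2.46, edgeR adjusted p 0.0374) were called as well. Over all alternatives the adjusted p ran from 0.0204 to 0.755 for PTP4A1, from 0.0121 to 0.687 for SESN3 and from 0.0402 to 0.858 for UFM1.

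GDI2 had 12.96 and 57.4 CPM in the NLS inputs of mock cells and 29.7 and 91.9 CPM in those given arsenite. In the NES inputs it had 33.1 and 46.8 CPM, and 40.8 and 109 CPM with arsenite. In the G3BP inputs the mock values ran from 44.5 to 61.7 CPM with a median of 50.8 CPM, and the arsenite values were 5.53 CPM at the lowest, 219 CPM at the median and 273 CPM at the highest. Mock and arsenite ranges overlapped in every line when library sets were pooled. Within JL0388 and within JL1024, the arsenite input was above the mock input in both the NLS and the NES line. In the G3BP line the overlap rests on arsenite replicate 5 (JL1024), where 5.53 CPM is 1 tag. The mock value of 44.5 CPM in that set is 1 tag as well. RAD23B had a wide spread in input, from 22.1 to 1056 CPM among the G3BP arsenite inputs, with a median of 129.8 CPM.

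**Figure D4:**
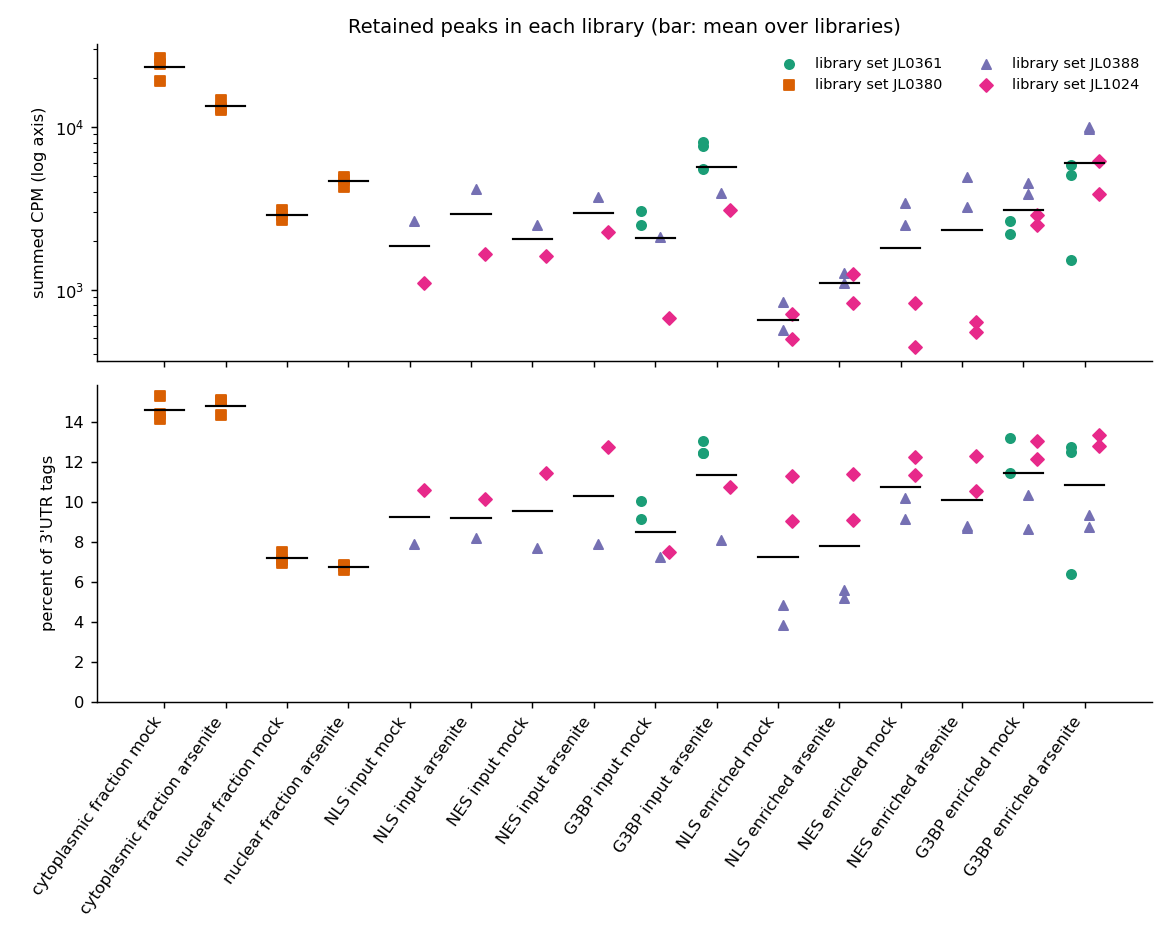
Summed CPM of the 341 retained peaks (top, log axis) and their share of tags in 3'UTR peaks (bottom, percent) in each of the 58 libraries, by group, with symbols for the 4 library sets and a bar at the mean over libraries. Cytoplasmic fractions have 14.6% and 14.8% of 3'UTR tags in these sites, nuclear fractions 7.19% and 6.77%, and NLS enriched libraries separate by library set.

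As a share of tags in 3'UTR peaks, the retained sites held 14.6% ± 0.596 (SD, n = 3) in mock and 14.8% ± 0.423 (SD, n = 3) in arsenite cytoplasm, and 7.19% ± 0.287 (SD, n = 3) and 6.77% ± 0.129 (SD, n = 3) in the nucleus. These fraction libraries chose the sites, so nothing is read from their shares. In the enriched libraries the group means lay between these levels. It was 8.25% ± 3.56 (SD, n = 3) in NLS enriched mock and 8.64% ± 3.03 (SD, n = 3) in NLS enriched arsenite, 10.8% ± 1.36 (SD, n = 4) in NES enriched mock and 10.6% ± 1.79 (SD, n = 3) in NES enriched arsenite, and 11.5% ± 1.74 (SD, n = 6) in G3BP enriched mock and 11.2% ± 2.80 (SD, n = 6) in G3BP enriched arsenite. In each of the 6 enriched groups the share was higher in JL1024 than in JL0388. In the NES line the means were 9.69% and 11.8% in mock and 8.77% and 11.5% with arsenite for JL0388 and JL1024, and in the G3BP line 9.51% and 12.6%, and 9.04% and 13.1%. The gap was wider in the NLS line, with means of 4.35% in mock and 5.39% with arsenite in JL0388 and 10.2% and 10.3% in JL1024. Within JL0388 every NLS enriched library (3.86% to 5.59%) was below every NES enriched one (8.72% to 10.2%), and within JL1024 the ranges overlapped, at 9.08% to 11.4% and 10.6% to 12.3%. Input group means, 8.5% to 11.4%, lay at the level of the enriched ones. Single inputs ran from 7.27% to 8.21% in JL0388 and from 7.50% to 12.8% in JL1024. In JL0361, which holds G3BP inputs only, they ran from 9.16% to 13.1%. With G3BP mock replicates 3 and 4 counted once, the G3BP enriched mock share was 11.9% ± 1.505 (SD, n = 5).

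Retained sites as a share of retained plus comparison tags set the 2 kinds of cytoplasmic site against each other in libraries the rule did not use. In NES enriched mock libraries the share was 40.4%, 38.1%, 37.2% and 41.4%, and in NES enriched arsenite libraries 35.7%, 36.2%, 32.2% and 29.5%. These ranges did not overlap. The mock values were above the arsenite values in JL0388, where the arsenite pair counts as 1 sample, and in JL1024. In the cytoplasmic fraction, whose arsenite values chose the sites, the share went the other way, from 38.5% ± 0.4996 (SD, n = 3) to 45.2% ± 0.86 (SD, n = 3). In the NLS and G3BP lines mock and arsenite ranges overlapped. The NES inputs overlapped too, with 37.7% and 33.1% in mock and 36.2% and 35.1% with arsenite. The NES difference was not tested, and at 51 to 355 tags in retained sites per NES enriched library each share carries wide counting error.

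Proximity to the nuclear against the cytoplasmic APEX was compared to ask whether these sites lie nearer the cytoplasmic one. In mock cells 48 of the 341 sites passed the filter. limma called 0 of them and 0.0% of 928 peaks, with 5 sites at an unadjusted p under 0.05 (13.6% of all peaks), and edgeR also called 0 of the 48 and 0.108% of all. The median log2 difference, NLS over NES, was -0.76 for the retained sites against -0.11 for 84 comparison peaks, -0.15 for 3'UTR peaks and 0.32 for all peaks. This gap did not hold with the 4 pairs counted once, where 94 retained sites had a median of -0.11 and 148 comparison peaks 0.01. limma then called 7 of the 94, of which 6 were higher in the NLS line, and 263 of 1942 peaks. Leaving out 1 library gave -0.70 to -0.12 for retained sites, with -0.12 without NLS enriched mock replicate 2, -0.27 without NES enriched mock replicate 2, -0.33 without NLS enriched mock replicate 1 or NES enriched mock replicate 4 and -0.39 without NES enriched mock replicate 1; more sites pass the filter in these settings. The sign depended on the library set: within JL0388 the median was -0.81 for retained sites, -0.64 for 3'UTR peaks and 1.83 for all peaks, and within JL1024 it was 0.83, 0.90 and 0.90.

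With arsenite, 110 sites were tested between the NLS and NES lines. limma called 0 of them and 0.0% of 1676 peaks, with 7 sites under an unadjusted p of 0.05 (10.4% of all peaks), and edgeR called 0 of the 110 and 0.298% of all. The medians were -0.44 for retained sites, -0.25 for comparison peaks, -0.21 for 3'UTR peaks and 0.05 for all peaks. With the 4 pairs counted once they were -0.17 for retained sites and 0.04 for comparison peaks. Leaving out 1 library gave -0.62 to -0.18 for retained sites, with -0.18 without NLS enriched arsenite replicate 1, -0.19 without replicate 2 and -0.23 without NES enriched arsenite replicate 1. Again the sets differed, with -1.04 within JL0388 and 0.50 within JL1024 for the retained sites. PCBP2 had 7.57 to 34.5 CPM in NLS enriched mock libraries with a median of 16.5 CPM, and 0 to 59.6 CPM in NES enriched mock libraries with a median of 50.1 CPM. CDC42 had 13.4 to 27.7 CPM in the NLS enriched and 33.6 to 131 CPM in the NES enriched arsenite libraries, without overlap. Neither test called it, and how many other peaks lay apart was not counted, so nothing is read from it.

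Nearness to the stress granule protein was examined by comparing G3BP with NES enriched libraries under arsenite. The test used the sets that hold both lines, JL0388 and JL1024, with 4 libraries of each line, so the 3 G3BP libraries of JL0361 were not in it. Of 136 retained sites tested, limma called 0 and 0.491% of 1223 peaks; 32 sites passed an unadjusted p under 0.05, against 21.1% of all peaks. edgeR called 21 of the 136, all higher in the G3BP line, which is 15.4% against 11.0% of all peaks, 15.7% of 3'UTR peaks and 25.0% of comparison peaks. The median log2 difference was 1.49 for retained sites, 1.68 for comparison peaks, 1.38 for 3'UTR peaks and 0.83 for all peaks. The share that edgeR called among retained sites was close to that among all 3'UTR peaks.

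Several of the 21 sites, named after their values were seen, were also among the strongest in the cytoplasm. The lowest edgeR adjusted p belonged to VCPIP1, a deubiquitinase (log2 3.88, edgeR adjusted p 0.00222, limma adjusted p 0.0507), SSR1 (log2 4.51, edgeR adjusted p 0.00283, limma adjusted p 0.0507) and TMED2 (log2 4.60, edgeR adjusted p 0.0035, limma adjusted p 0.0599). GDI2 was called as well, with a log2 of 2.90 in edgeR (adjusted p 0.00826) and a limma adjusted p of 0.0507. GDI2 had 78.4, 78.7 and 6.21 CPM in replicates 1, 2 and 3 of the NES enriched arsenite libraries. It had 259, 321, 179 and 59.7 CPM in the 4 G3BP enriched arsenite libraries tested. The ranges overlapped through the lowest G3BP library. In the 3 G3BP libraries of JL0361, outside the test, it had 0, 127 and 160.2 CPM. PCBP2, RPN1, RAD23B, SUMO2 and TRA2A were among the 21 too.

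Between treatments in the G3BP enriched libraries, 178 retained sites were tested. limma called 0 of them and 0.0% of 1505 peaks, and 37 passed an unadjusted p under 0.05 (17.7% of all peaks). edgeR called 9, all higher with arsenite, which is 5.06% against 3.12% of all peaks in either direction, 2.79% in that direction, and 4.15% of both 3'UTR and comparison peaks. The median log2 change was 1.14 for retained sites, 1.40 for comparison peaks, 1.13 for 3'UTR peaks and 0.95 for all peaks. Without libraries under 2000 tags in peaks it was 0.44 for retained sites, 0.51 for comparison peaks and 0.26 for 3'UTR peaks. Within JL0388, whose mock libraries held 1831 and 679 tags in peaks, it was 3.39, 3.75 and 3.31 in the same order, and within JL1024 0.31, 0.21 and 0.34. VCPIP1 (edgeR adjusted p 0.0221), P4HA1, a collagen prolyl hydroxylase (0.0224), GDI2 (0.0255), TMED2 (0.0268), ALB (0.0336), FAM168B (0.0336), PCBP2 (0.0336), MAT2B (0.0355) and an NAP1L1 site (0.0488) made up the 9. PCBP2 had 0 to 214.5 CPM in mock with a median of 48.9 CPM, where the highest value is 1 tag, and 76.1 to 417 CPM with arsenite with a median of 177 CPM.

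The summed signal of the retained sites in G3BP enriched libraries was 2212 and 2631 CPM in mock and 1521, 5046 and 5823 CPM with arsenite in JL0361. It was 3862 and 4505 CPM against 10022 and 9657 CPM in JL0388, and 2878 and 2512 CPM against 3886 and 6139 CPM in JL1024. Arsenite libraries were higher within JL0388 and JL1024, and the exception in JL0361 was the library with 1391 tags in peaks. In NES enriched libraries, summed values were 445.96 to 3417 CPM in mock and 551 to 4941 CPM with arsenite, with JL0388 above JL1024 under both treatments.

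Each line's enriched libraries were compared with its inputs to see what the capture kept. In the G3BP line, limma called 0 of 252 retained sites and 0.83% of 2890 peaks, with 8 sites at an unadjusted p under 0.05 (9.27% of all peaks), and edgeR called 1, EIF5A, against 5.36% of all peaks in either direction and 2.42% in that direction (log2 1.94 higher in enriched, edgeR adjusted p 0.0317, limma adjusted p 0.74). In the NES line, limma called 0 of 207 sites and 0.0% of 3059 peaks, with 26 at an unadjusted p under 0.05 (13.5% of all peaks), and edgeR called 1, a TMEM33 site, against 0.458% (log2 -5.38, edgeR adjusted p 0.015). Inputs are the smaller group in this line, so a site can pass the filter through inputs alone and then only be called lower. All 14 peaks that edgeR called in the NES line were lower. The medians of the retained sites were -0.20 in the G3BP line and -0.55 in the NES line, against -0.15 and -0.46 for all peaks. In the G3BP line this median moved between -0.34 (without G3BP input arsenite replicate 1) and -0.01 (without G3BP enriched arsenite replicate 1) when 1 library was left out, and it changed sign under other settings.

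In the NLS line, enriched libraries held fewer CPM in the retained sites than inputs. Summed values were 499 to 833 CPM in NLS enriched mock and 822 to 1262 CPM in NLS enriched arsenite libraries, against 1102 and 2630.0 CPM in mock and 1659 and 4176 CPM in arsenite inputs. As a share of 3'UTR tags, inputs and enriched libraries of JL0388 had 7.89% and 4.35% in mock and 8.21% and 5.39% with arsenite. In JL1024 the shares were near equal, at 10.6% and 10.2% in mock and 10.2% and 10.3% with arsenite. limma called 33 of 299 sites lower, 11.0% against 7.42% of all 39079 peaks (10.8% at an unadjusted p under 0.05) and 10.9% of 3'UTR peaks. In simulated counts limma also called peaks that had been left unchanged in this comparison, where depth differs between the groups. These calls are therefore not read as differences. edgeR called 3 of the 299, all lower, which is 1.0% against 0.0589% of all peaks, 0.238% of 3'UTR peaks and 1.57% of comparison peaks. The 3 were RBM47, an RNA-binding protein (log2 -4.00, edgeR adjusted p 0.0167), PCBP2 (log2 -1.54, edgeR adjusted p 0.0285) and RPN1 (log2 -1.56, edgeR adjusted p 0.0392). As in the NES line, a site could pass the filter through inputs alone, and all 23 peaks that edgeR called were lower. The sites with the lowest limma adjusted p, ACTB, TOR1AIP2, PCNP, CDK2AP1 and PITPNB, were not called by edgeR.

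**Figure D5:**
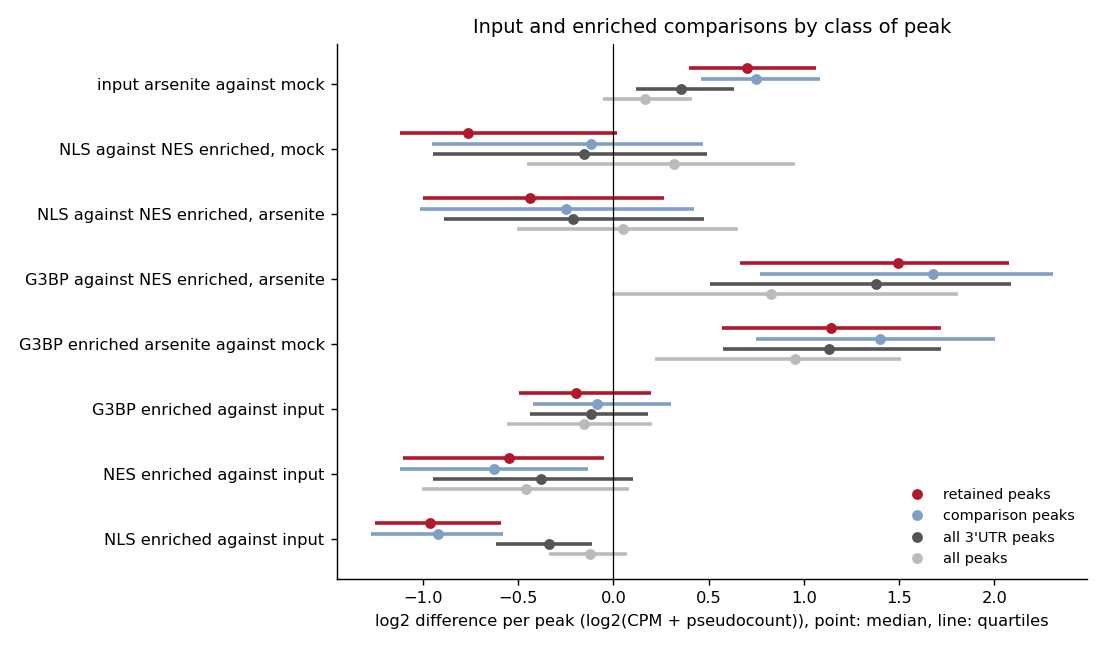
Log2 difference per peak in the 8 comparisons of input and enriched libraries, with the median (point) and quartiles (line) of retained peaks, comparison peaks, all 3'UTR peaks and all peaks that passed each filter. Where NLS is set against NES in mock cells the medians of retained and comparison peaks are -0.76 and -0.11, and -0.11 and 0.01 with the 4 pairs counted once.

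In the NLS line the median log2 difference, enriched over input, was -0.96 for retained sites, -0.92 for comparison peaks, -0.34 for 3'UTR peaks and -0.12 for all peaks. Within JL0388 the retained sites had a median of -1.41 and within JL1024 of -0.44, the same sign in both sets. Comparison peaks had -1.28 and -0.53, 3'UTR peaks -0.44 and -0.26, and all peaks -0.30 and -0.05. The shared sign is thus not particular to the retained sites. PCBP2 had 42.7 and 98.8 CPM in the mock inputs and 7.57 to 34.5 CPM in the mock enriched libraries, without overlap, and 65.6 and 154 CPM against 15.3 to 84.7 CPM with arsenite. RPN1 had 45.0 and 72.9 CPM in the mock inputs and 3.78 to 41.0 CPM in the mock enriched libraries, again without overlap.

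Levels of the sites went together across the kinds of library. Over the 341 sites, Spearman's rho was 0.69 between the arsenite cytoplasmic mean and the input mean, and 0.57 between the arsenite cytoplasmic mean and the G3BP enriched arsenite mean; sites share libraries and depth, so these are descriptions across sites. Between arsenite and mock ratio rho was 0.24. All 341 sites had tags in input, with a median of 87 tags in 11 of the 17 libraries, and 340 had tags in enriched libraries, with a median of 23 tags in 10 of the 29.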

How the data were processed

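Signal per library at each 20 nt peak was deposited by the authors as a single table. Each value was a whole number of tags divided by a library total, which was read from the values: whole tags were recovered for 100.0% of them within 0.01 tags. Per the submitters' processing notes, Bowtie2, SAMtools, bedtools and HOMER were used with GRCh38.p14; versions, roles and the removal of PCR duplicates are not given in the sources used here. Of 395471 lines, 8257 repeated another and were dropped. Coordinates are printed as deposited, with their base, 0 or 1, unknown. Peaks carry no sequence here, and no genome was used. Library totals ranged from 4662 to 2622677 tags, and counting error covers tags only.

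CPM were deposited values times 1000000. Peaks were tested with limma (3.58.1, R 4.3.3, lmFit and eBayes with trend) on log2(CPM + 2.28 CPM), two-sided, for peaks with a tag in no fewer libraries than the smaller group held, with library set (and line or treatment where they varied) as covariates and Benjamini-Hochberg adjustment over all peaks at 0.05. Log2 differences from limma are on that scale and understate changes of low sites. edgeR (4.0.16, quasi-likelihood) on the recovered tags was the alternative. Both were tested on simulated counts, with some peaks changed and the others not. The counts followed the kind of model that edgeR assumes, with a fixed dispersion and no effect of library set. In them edgeR made few false calls, while limma missed many changed peaks and, in the NLS enriched against input comparison, called unchanged ones. How often either errs on these libraries, where sets differ, was not tested. Replicate numbers recur across groups; residuals of same-numbered libraries correlated at -0.576 to 0.244, so numbers were not taken to pair libraries.

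The sites, gene lists and tests were chosen with earlier results of these data known. Named sites are the 10 strongest and the 10 with the largest ratio in arsenite, the 5 genes with most sites, up to 3 genes per list, the 6 strongest in each kind of APEX library, up to 5 per test and direction among those called, 3 on each side of each threshold, UFM1 and ACTR2, and the 5 genes with most comparison peaks beside a retained one, and a sixth tied with them; exceptions are stated. Python 3.11.15, numpy 2.4.6, pandas 2.3.3 and matplotlib 3.10.9 were used.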

Additional observations from a re-analysis of the deposited data

Results flagged for a closer look

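In the G3BP enriched arsenite group, replicate 1 stood apart from the others in the share that retained sites took of retained plus comparison tags. It had 18.9%, against 32.4% to 35.1% in the other 5 samples, a gap of 0.833 of the group's range. This library held 1391 tags in peaks, 20 of them in retained sites. Of 15 groups and measures examined for such gaps 1 was flagged, and chance flags about 1 in 20.

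The summed CPM of the retained sites moved in opposite directions with arsenite in the fractions. It was 0.578 of mock in the cytoplasm, where all 3 arsenite libraries were below all 3 mock libraries, and 1.60 times mock in the nucleus, where all 3 were above. The difference was not tested, because these libraries chose the sites.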

How the results depend on the processing

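Depth limits single sites: 5 libraries held under 2000 tags in peaks. The number of retained sites was 530 and 190 with a minimum of 5 and 20 CPM, 209 with a mock ratio of 6, and 555 and 113 with an arsenite ratio of 1.5 and 3; leaving out 1 fraction library gave 302 to 375. The cause of the changes below was not tested.

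Counts of called retained sites are followed in brackets by their share of the retained sites tested and then the share of all peaks called. In input between treatments they were 24 by edgeR (7.57%, 1.61%), 2 within JL0361 (0.593%, 0.0219%) and 12 within JL0388 (3.72%, 0.0521%). For NLS against NES in mock they were 3 with a smaller pseudocount (6.25%, 7.54%), 3 when scaled to tags in peaks (6.25%, 7.44%), 7 with indistinguishable libraries counted once (7.45%, 13.5%), 14 within JL0388 (13.7%, 56.7%), 16 within JL1024 (20.8%, 40.3%) and 0 to 5 with 1 library left out, where 5 is 6.49% against 14.7%. With arsenite they were 3 with a smaller pseudocount (2.73%, 3.10%), 1 with no filter (0.337%, 0.0169%) and 4 when scaled (3.64%, 3.52%). For G3BP against NES they were 1 and 7 with a smaller and larger pseudocount (0.735%, 1.88% and 5.15%, 2.78%), 6 with no filter (1.92%, 0.0523%), 13 with a stricter one (23.6%, 16.0%), 1 when scaled (0.735%, 1.88%), 21 by edgeR (15.4%, 11.0%) and 35 within JL1024 (28.0%, 32.6%). For G3BP enriched between treatments they were 4 with no filter (1.18%, 0.0261%), 9 by edgeR (5.06%, 3.12%) and 81 within JL0388 (57.4%, 65.2%).

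Enriched against input gave 1 by edgeR (0.397%, 5.36%) and 50 within JL0388 (16.6%, 76.3%) in the G3BP line. The NES line gave 2 with a smaller pseudocount (0.966%, 1.77%), 2 with no filter (0.599%, 0.0266%), 1 by edgeR (0.483%, 0.458%), 63 within JL0388 (21.9%, 70.5%) and 8 within JL1024 (6.40%, 4.51%). With 1 library left out it gave 0 to 13, with 13 without NES input mock replicate 2 (4.98%, 7.66%) and 7 without NES input arsenite replicate 2 (2.79%, 8.20%). The NLS line gave 50 with a smaller pseudocount (16.7%, 8.51%), 0 with no filter, 2 with a stricter filter (0.985%, 0.190%), 18 when scaled (6.02%, 7.32%), 3 by edgeR (1.00%, 0.0589%) and 109 within JL0388 (34.2%, 51.7%). With 1 library left out it gave 16 to 43, with 17 without NLS input mock replicate 1 (5.61%, 9.04%), 16 without NLS input arsenite replicate 1 (5.26%, 7.98%) and 43 without NLS input mock replicate 2 (13.6%, 13.1%). With the replicate block the NLS line gave 24 (8.03%, 6.63%) and the other 7 comparisons 0.

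Median log2 values changed sign for NLS against NES within JL1024 (0.83 in mock, 0.50 with arsenite) and for G3BP enriched against input when scaled (0.13), by edgeR (0.090), without libraries under 2000 tags (0.14) and within JL1024 (0.87). Counting G3BP enriched mock replicates 3 and 4 once as well, an alternative chosen after seeing the data, left 0 retained sites called by limma in both G3BP comparisons that use them, with medians of 0.80 between treatments and -0.076 for enriched against input.

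As a share of all tags in peaks, the retained sites took 6.21% and 3.64% in mock and arsenite cytoplasm, 0.844% and 1.30% in the nucleus, 3.15% and 4.80% in G3BP enriched, 1.49% and 3.24% in G3BP input, 2.48% and 2.28% in NES enriched, 1.54% and 2.15% in NES input, 0.804% and 1.25% in NLS enriched, and 1.29% and 1.91% in NLS input. As a share of the library total these were, in the same order, 2.34% and 1.35%, 0.288% and 0.462%, 0.310% and 0.538%, 0.207% and 0.566%, 0.180% and 0.175%, 0.205% and 0.297%, 0.0636% and 0.108%, and 0.187% and 0.292%. With 1 site per gene the share of 3'UTR tags was 12.9% and 13.1% in the cytoplasm and 6.41% and 6.06% in the nucleus.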
